A study of Mus musculus with 12 samples.

Results

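A set of 10 genes of the cellular response to low oxygen was examined in C2C12 myotubes treated with the mitochondrial uncoupler BAM15. They were taken by name and comprise the factor genes Hif1a and Epas1, the prolyl hydroxylase genes Egln1 and Egln3, the genes Vegfa and Adm for secreted factors, and the known target genes Ankrd37, Bnip3, Kdm3a and Higd1a. Of these, 9 were found among the 15113 genes with counts, and all 9 were among the 12730 genes that passed the filter on low counts. Epas1 was not analysed here. C2C12 is a mouse myoblast line, a single cell line whose cells fuse to multinucleated myotubes in low serum. Fully differentiated myotubes received 20 μM BAM15, dissolved in DMSO, or vehicle for 16 h, with 6 libraries per condition. RNA was counted at the 3′ end of transcripts by QuantSeq, with 13983725 to 18751780 reads per BAM15 library and 15299135 to 18866728 per vehicle library.

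Hypoxia-inducible factors are transcription factors made of an oxygen-regulated α subunit, such as the one encoded by Hif1a, and the constitutive partner ARNT. When oxygen is plentiful, EGLN enzymes use it to hydroxylate prolines of the α subunit, the VHL ubiquitin ligase then binds, and the subunit is degraded; when oxygen is scarce, the α subunit escapes, enters the nucleus and binds hypoxia response elements. Its targets serve angiogenesis, glycolysis, mitophagy and the feedback loop itself, and in skeletal muscle they are known from exercise and ischaemia. Because the α subunit is controlled mainly as a protein, the RNA counts given here do not measure its activity. BAM15 is a protonophore that carries protons into the mitochondrial matrix, so that respiration proceeds without ATP synthesis and oxygen use rises.

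The core of a hypoxia response element is ACGTG or GCGTG, and these letters were searched on both strands of the RefSeq promoter windows of the 9 genes (GRCm38.p6), each 300 bases long with 250 bases before and 50 bases after an annotated transcription start. All 9 genes had a window, 12 in all because Vegfa has 2 and Kdm3a 3, and 9 of the 12 windows held a core. Among all 32851 windows in the table, 43.8% held a core, 20.6% held at least 2, 8.9% at least 3, 3.9% at least 4 and 1.66% at least 5. A palindrome CACGTG counts once per strand, and matches may overlap. A match describes the letters and is not evidence of a bound site. The windows of 4 genes are shown because they span the range of core counts and the members with the largest rise and fall; cores are in capitals and the sequences run 5′ to 3′ on the strand of the gene. They lie at chr12:73907617-73907916 on the plus strand for Hif1a and, on the minus strand, at chr17:46032328-46032627 for the upstream start of Vegfa, at chr8:45999801-46000100 for Ankrd37 and at chr7:138909457-138909756 for Bnip3.
Hif1a: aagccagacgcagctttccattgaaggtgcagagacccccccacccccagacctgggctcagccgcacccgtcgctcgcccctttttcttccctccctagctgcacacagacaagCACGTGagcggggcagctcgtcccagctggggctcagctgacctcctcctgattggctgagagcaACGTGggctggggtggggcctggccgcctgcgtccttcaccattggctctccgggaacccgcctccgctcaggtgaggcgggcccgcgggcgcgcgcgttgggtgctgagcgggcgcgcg
Vegfa: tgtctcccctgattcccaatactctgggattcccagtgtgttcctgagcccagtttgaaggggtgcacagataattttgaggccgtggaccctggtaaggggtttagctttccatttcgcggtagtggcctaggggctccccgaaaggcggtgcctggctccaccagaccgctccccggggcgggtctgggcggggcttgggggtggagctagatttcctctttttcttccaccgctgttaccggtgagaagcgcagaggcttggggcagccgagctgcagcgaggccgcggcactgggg
Ankrd37: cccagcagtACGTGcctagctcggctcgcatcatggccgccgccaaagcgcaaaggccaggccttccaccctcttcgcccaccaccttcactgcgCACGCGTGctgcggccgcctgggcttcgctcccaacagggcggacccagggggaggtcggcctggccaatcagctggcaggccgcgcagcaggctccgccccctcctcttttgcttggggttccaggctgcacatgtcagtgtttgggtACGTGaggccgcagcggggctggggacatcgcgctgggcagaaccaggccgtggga
Bnip3: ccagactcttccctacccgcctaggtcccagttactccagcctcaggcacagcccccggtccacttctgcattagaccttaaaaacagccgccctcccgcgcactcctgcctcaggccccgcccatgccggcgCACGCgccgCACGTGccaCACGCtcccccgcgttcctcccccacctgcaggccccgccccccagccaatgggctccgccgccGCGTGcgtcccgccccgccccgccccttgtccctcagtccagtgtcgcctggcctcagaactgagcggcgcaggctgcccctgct

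The Hif1a window held 3 matches, of which 2 are the strands of 1 palindrome at position −135 relative to the start. The upstream Vegfa window held none, while the window of its internal start held 2. The Ankrd37 window held 4, among them an ACGTG that begins at position −6, next to the start. The Bnip3 window held 5, between positions −117 and −35. The remaining members held 2 (Egln1), 1 (Egln3), 2 (Adm), 1 (the first Kdm3a window, with none in the other 2) and 3 (Higd1a), as drawn in the map of cores by position. ACGTG, the more restrictive form, was present in 7 of the 12 member windows and in 19.6% of all windows.

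**Figure D1:**
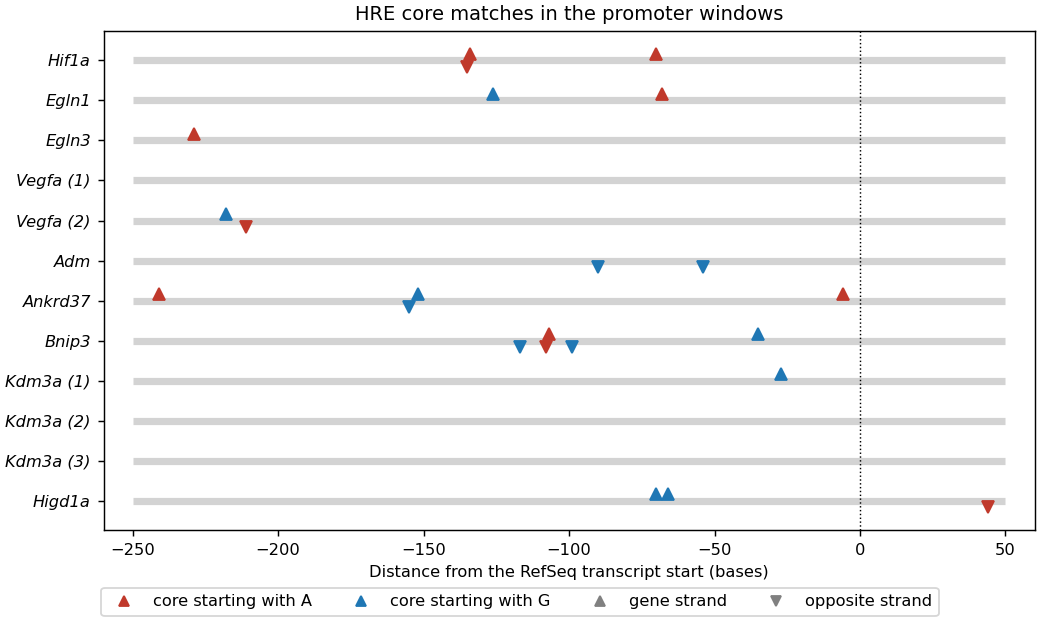
Positions of ACGTG and GCGTG cores in the 12 RefSeq promoter windows of the 9 genes, in bases from the annotated transcription start (x axis), with a row per window. The upstream Vegfa window and 2 Kdm3a windows hold no core, and the Bnip3 window holds 5.

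BAM15 libraries 4 to 6 stood apart from BAM15 libraries 1 to 3. This split was taken from earlier results of these data. Comparisons between the number sets within BAM15 therefore describe the split and are not independent support for it, and the vehicle split was not picked in that way. Between these number sets 38.8% of the tested genes differed within BAM15 at an adjusted p below 0.05, against 0 genes within vehicle, where 696 had an unadjusted p below 0.05. The labels name no batch, so what the numbers mark is not known, and values for each set are therefore given beside the members below. The replicate numbers are not stated to mark separate cultures, so p-values measure the spread between these libraries, which may be technical. In bulk RNA a lower level cannot be told apart between fewer cells of a type and less RNA per cell.

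The question was how the 9 genes changed in myotubes after uncoupling. Of the 9, 2 rose, 6 fell and 1 did not pass at an adjusted p below 0.01 (edgeR quasi-likelihood test, Benjamini-Hochberg over all 12730 tested genes), where 22% of all tested genes rose and 20.3% fell. The 2 that rose were Hif1a and Vegfa. Only Vegfa also passed a base mean above 50 and a change above 2-fold, thresholds that 3.7% of genes passed upwards and 3.58% downwards. The groups did not overlap for 8 of the 9 genes, against 34.2% of all tested genes. Over the 9 genes the median change was −0.56 on the log2 scale, beside 0.02 for the whole tested set. The members were chosen with earlier results of these data known, so these comparisons describe the set and do not test it. Values below are TMM-normalized counts, given per library group as lowest, median and highest, and fold changes are BAM15 over vehicle on the log2 scale.

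Hif1a encodes the α subunit itself (chromosome 12, 73901375 to 73947530, plus strand; all gene coordinates are GENCODE M21, GRCm38). Its counts ran from 1432 to 1797 with a median of 1699 in BAM15 and from 1059 to 1296 with a median of 1135 in vehicle, with means of 1648 ± 161 and 1154 ± 78.6 (SD, n = 6). Every BAM15 library lay above every vehicle library. The log2 fold change was 0.51 (SE 0.07, adjusted p = 2.02e-05), which is below 2-fold. It was 0.56 for numbers 1 to 3 and 0.45 for numbers 4 to 6.

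Both prolyl hydroxylase genes fell. Egln1 encodes PHD2, the main oxygen sensor of the pathway, and lies on chromosome 8 (124908587 to 124949324, minus strand). Its counts were 438, 536 and 659 in BAM15 and 885, 1020 and 1079 in vehicle, so that the groups were separate. The means were 546 ± 86.4 and 1005 ± 77.8, and the log2 fold change was −0.88 (SE 0.10, adjusted p = 1.90e-06). Egln1 was among the genes that differed between number sets within BAM15, 0.38 higher on the log2 scale in numbers 4 to 6 (adjusted p = 0.00357). Its fall was −1.13 for numbers 1 to 3 and −0.67 for numbers 4 to 6. Egln3 encodes PHD3, whose gene is itself a classical target of the factor, and lies on chromosome 12 (54178981 to 54203860, minus strand). Its counts were 1146, 1267 and 1396 in BAM15 and 1777, 1851 and 2049 in vehicle. The highest BAM15 library stayed below the lowest vehicle library. The log2 fold change was −0.56 (SE 0.06, adjusted p = 7.52e-07), with −0.54 and −0.60 in the 2 number sets.

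The 2 genes for secreted factors moved in opposite directions. Vegfa encodes the main growth factor of blood vessels and lies on chromosome 17 (46016993 to 46032369, minus strand). Its counts were 1849, 2098 and 2418 in BAM15 and 551, 648 and 797 in vehicle, with means of 2119 ± 261 and 656 ± 97.1. The lowest BAM15 library was far above the highest vehicle library, and the log2 fold change of 1.69 (SE 0.10, adjusted p = 3.07e-09) was the largest rise of the 9 genes. The rise was 1.45 for numbers 1 to 3 and 1.91 for numbers 4 to 6. Adm encodes adrenomedullin, a vasodilator peptide, and lies on chromosome 7 (110627661 to 110629820, plus strand). Its counts were low, 43.2, 53.3 and 60.2 in BAM15 and 71.4, 83.3 and 112 in vehicle. The groups were separate, and the log2 fold change was −0.73 (SE 0.14, adjusted p = 3.92e-04). The fall was −0.89 for numbers 1 to 3 and −0.58 for numbers 4 to 6, the latter with an adjusted p of 0.0318, which no longer passed 0.01.

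**Figure D2:**
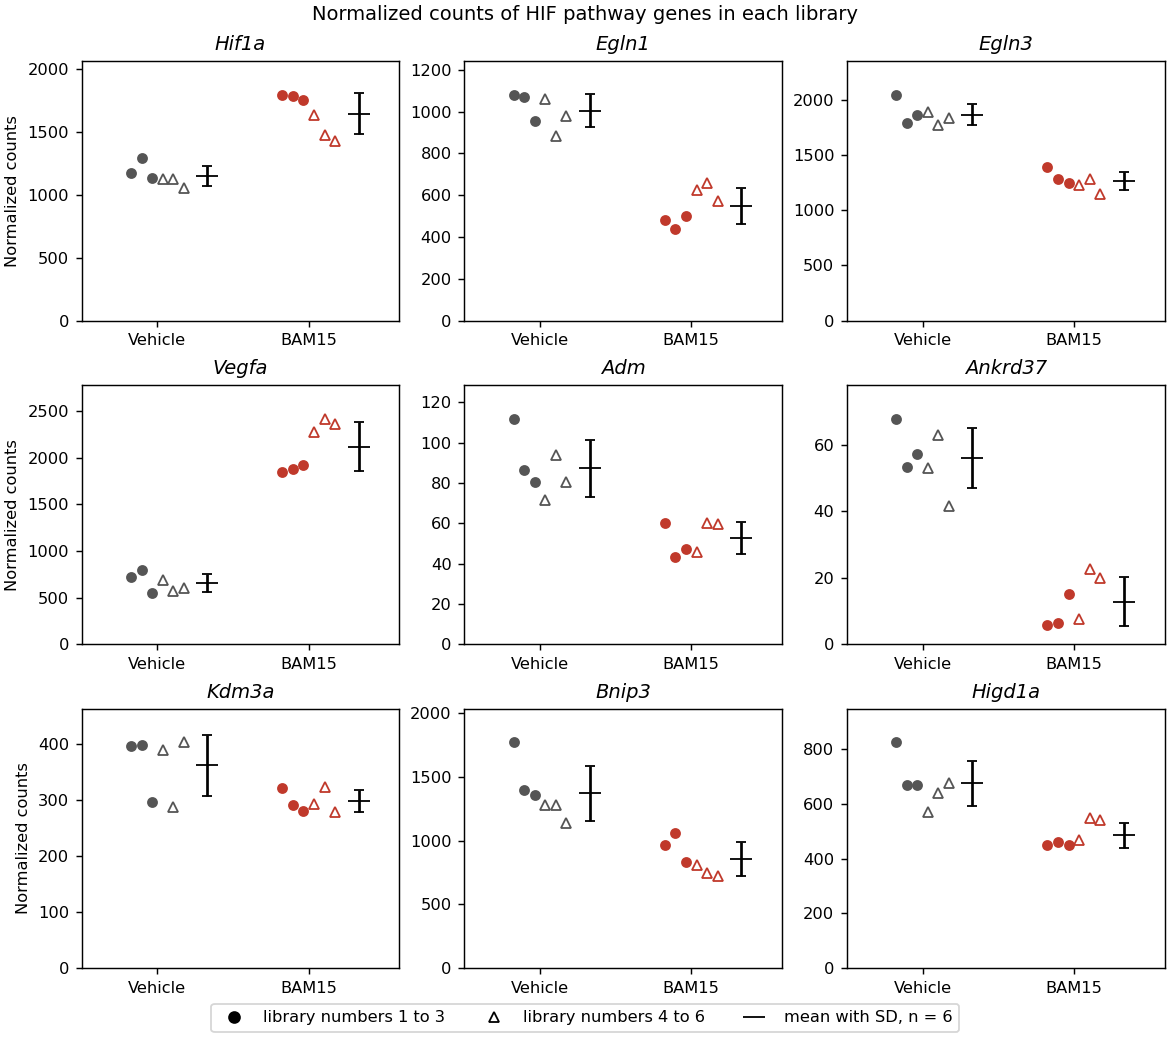
Normalized counts of the 9 genes in each of the 12 libraries, BAM15 and vehicle, with group mean and SD. Vegfa and Hif1a are higher in every BAM15 library than in any vehicle library, and Kdm3a is the only gene whose groups overlap.

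Ankrd37 fell furthest of the 9 genes. It encodes an ankyrin repeat protein, lies on chromosome 8 (45996902 to 46005707, minus strand), and its last 400 transcribed bases are covered for 57 bases by exons of Ufsp2 on the opposite strand. Its normalized counts were 5.82, 11.3 and 22.5 in BAM15 and 41.6, 55.3 and 67.8 in vehicle, with means of 12.9 ± 7.30 and 56.0 ± 9.09. The groups were separate, and the log2 fold change was −2.11 (SE 0.28, adjusted p = 1.57e-05). The fall was −2.68 for numbers 1 to 3 and −1.65 for numbers 4 to 6, and the test of the difference between the sets gave 1.04 (SE 0.52, adjusted p = 0.212). The gene did not count as past the 3 thresholds because its base mean was 34.4. Kdm3a encodes a histone lysine demethylase that removes methyl groups from H3K9 and lies on chromosome 6 (71588972 to 71632990, minus strand). Its counts were 279, 292 and 323 in BAM15 and 289, 393 and 403 in vehicle. The groups overlapped, with 2 vehicle libraries (numbers 3 and 5) among the BAM15 values. The log2 fold change was −0.28 (SE 0.10, adjusted p = 0.0241), with −0.29 for numbers 1 to 3 and −0.28 for numbers 4 to 6. The adjusted p was 0.00866 without vehicle replicate 3 and 0.00574 without vehicle replicate 5.

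Both mitochondrial targets fell. Bnip3 encodes a mitochondrial outer membrane receptor of mitophagy and lies on chromosome 7 (138890836 to 138909519, minus strand). Its counts were 724, 820 and 1059 in BAM15 and 1140, 1317 and 1769 in vehicle, with means of 855 ± 131 and 1369.5 ± 215. The groups did not overlap, although the highest BAM15 library came near the lowest vehicle library, and the log2 fold change was −0.68 (SE 0.11, adjusted p = 1.13e-04), with −0.67 and −0.71 in the 2 number sets. Of the last 400 bases of Bnip3, 272 are also covered by exons of Gm45507, which runs antisense, and the strand used in counting is not given in the sources used here, so reads of the pair cannot be told apart. Higd1a encodes an inner membrane protein that associates with cytochrome c oxidase and lies on chromosome 9 (121848563 to 121858362, minus strand). Its counts were 448, 464 and 547 in BAM15 and 572, 671 and 825 in vehicle. The lowest vehicle library lay just above the highest BAM15 library, and the log2 fold change was −0.48 (SE 0.09, adjusted p = 2.82e-04). The fall was −0.68 for numbers 1 to 3 and −0.29 for numbers 4 to 6, the latter with an adjusted p of 0.0388.

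All 9 genes kept their direction in numbers 1 to 3 and in numbers 4 to 6, and no BAM15 library of any of them crossed the mean of the vehicle libraries, 6 of 6 for each gene. For every gene but Kdm3a the latter is already fixed by the groups not overlapping, so it adds no support. The shares of all tested genes are not given here for either count. A direct test of the difference in the BAM15 effect between the sets found 0 of 9 genes at an adjusted p below 0.05, where 2.66% of all genes passed, and 3 of 9 at an unadjusted p below 0.05. The 3 were Egln1, Vegfa and Higd1a. The share of all genes at that unadjusted level is not given here, so the 3 of 9 have no background to be read against. The effect was 0.47 higher in numbers 4 to 6 for Egln1 (SE 0.13, adjusted p = 0.0543) and 0.47 higher for Vegfa (SE 0.14, adjusted p = 0.0696). Within BAM15, 4 of the 9 differed between sets at an adjusted p below 0.05, near the 38.8% of all tested genes that did, 2 higher in numbers 4 to 6 (Egln1 and Vegfa) and 2 lower (Hif1a and Bnip3). Within vehicle, 0 of the 9 did at an adjusted p below 0.05 and 1 at an unadjusted p below 0.05.

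**Figure D3:**
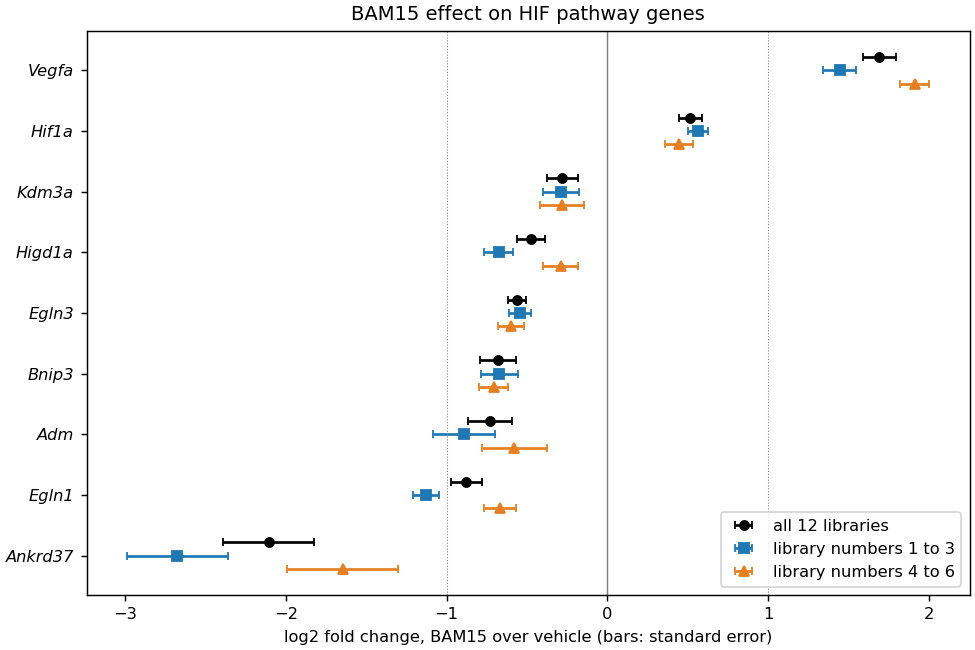
Log2 fold change of the 9 genes, BAM15 over vehicle, with its standard error, for all 12 libraries and for numbers 1 to 3 and 4 to 6 alone. Vegfa lies highest and Ankrd37 lowest, and each gene keeps its sign in both number sets.

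The partners and controllers of the factor were measured next, 14 of a list of 15. At an adjusted p below 0.01, 3 rose (21.4%), 4 fell (28.6%) and 7 did not pass, beside 22% and 20.3% of all tested genes. None passed the 3 thresholds, and the median log2 fold change was −0.09. This list and those below were chosen with earlier results of these data known. Among those that rose was Cited2, a target and repressor that competes for the coactivators CREBBP and EP300, from 2539 ± 194 to 4828 ± 445 (log2 fold change 0.93, SE 0.07, adjusted p = 2.96e-08). Cul2, the cullin of the VHL ligase, rose by 0.54 (adjusted p = 0.00104) and the ligase gene Siah2, whose product targets the prolyl hydroxylases, by 0.33 (adjusted p = 0.00537). Hif1an encodes the asparagine hydroxylase that blocks coactivator binding, and fell from 1474 ± 67.5 to 945 ± 81.2 (log2 fold change −0.64, SE 0.06, adjusted p = 6.06e-07). The others that fell were Arnt2 (−0.70, adjusted p = 0.00369), Egln2, the remaining prolyl hydroxylase (−0.23, adjusted p = 0.00950), and Rbx1, the RING subunit of the ligase (−0.38, adjusted p = 1.49e-04). Members that did not pass included Arnt at 0.47 (adjusted p = 0.0425), Vhl at −0.19 (adjusted p = 0.0606) and Siah1a at 0.78 (adjusted p = 0.0969). Elob, for which 42.2% of its 50-base windows recur in other transcripts, was at −0.16 (adjusted p = 0.0109). Eloc was at −0.22, Crebbp at 0.02 and Ep300 at −0.02, with adjusted p of 0.497, 0.897 and 0.833. All 3 EGLN genes and Hif1an, the 4 oxygen-dependent hydroxylases of the factor, thus passed downwards, where 20.3% of all tested genes did. These 4 were grouped from the member list and the partner list after their values were seen, so the share describes them and does not test them. Egln2 did not pass in either number set alone, with an adjusted p of 0.0229 for numbers 1 to 3 and 0.0397 for numbers 4 to 6. The call of Egln2 is marginal, since its adjusted p was 0.0128 to 0.0250 without BAM15 replicate 1, 3, 4 or 5 or vehicle replicate 1, 3, 5 or 6, and 0.0209 with the replicate block. That of Siah2 is marginal too, with 0.0123 to 0.0159 without BAM15 replicate 4 or vehicle replicate 1, 2, 3 or 4, 0.0151 and 0.0116 in the 2 number sets, 0.0194 on the deposited normalized signal and 0.0350 with library size only, whereas Vhl passed without vehicle replicate 2 (0.00707) and Elob without BAM15 replicate 5 (0.00548). Cul2 and Arnt2 did not pass for numbers 1 to 3 alone, at 0.27 (adjusted p = 0.0207) and −0.58 (adjusted p = 0.0380), and Rbx1 did not for numbers 4 to 6 alone, at −0.28 (adjusted p = 0.0170). Eloc passed for numbers 1 to 3 alone, at −0.80 (adjusted p = 6.17e-08), and Arnt for numbers 4 to 6 alone, at 0.76 (adjusted p = 0.00158), while the difference between number sets had an adjusted p of 0.0792 for Eloc and 0.0666 for Arnt.

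Targets that serve glucose use numbered 21, all tested, with a median of −0.20. At an adjusted p below 0.01, 1 rose (4.76%, against 22% of all tested genes), 7 fell (33.3%, against 20.3%) and 13 did not pass. The 4 past the 3 thresholds, which 3.58% of all tested genes passed downwards, all fell. Pfkl, a phosphofructokinase of glycolysis, went from 1212 ± 166 to 362 ± 60.1 (log2 fold change −1.74, SE 0.11, adjusted p = 7.17e-09). Slc16a3, which exports lactate, was at −2.03 (adjusted p = 6.34e-10), Ldha, which makes lactate from pyruvate, at −1.01 (adjusted p = 1.38e-06), and Pdk1, the kinase that switches off pyruvate dehydrogenase, at −1.08 (adjusted p = 9.15e-06). Ldha lay close to the 2-fold limit and fell short of it without BAM15 replicate 1, 2 or 3 or vehicle replicate 5, with a log2 fold change of −0.95 without BAM15 replicate 3. For numbers 4 to 6 alone both Ldha and Pdk1 were under 2-fold, at −0.86 and −0.88. Some genes that did not pass with all libraries passed in a single number set, and are named after their values were seen. For numbers 4 to 6 alone Slc2a1 rose by 0.83 (adjusted p = 0.00107), against 0.06 for numbers 1 to 3. Pfkp and Gys1 fell for numbers 4 to 6 alone, at −0.31 and −0.37 (adjusted p = 0.00736 and 0.00172). Gapdh fell for numbers 1 to 3 alone, at −0.99 (adjusted p = 0.00722). Hk2, a hexokinase, was the gene of this list that rose, at 0.85 (adjusted p = 1.34e-08); it was chosen for mention after its value was seen. Gapdh and Eno1 recur in other transcripts over 87.8% and 83.8% of their 50-base windows, so that their counts are uncertain.

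Other known targets were tested for 29 of 33 genes, with a median of −0.03. Of these, 12 rose (41.4%, against 22% of all tested genes), 13 fell (44.8%, against 20.3%) and 4 did not pass. Ero1l, an oxidase of the endoplasmic reticulum, rose by 2.64 (adjusted p = 1.19e-13), Ndrg1, a stress-responsive gene, by 2.05 (adjusted p = 7.75e-12), Hmox1, which degrades haem, by 2.05 (adjusted p = 6.62e-09), and Lonp1, a mitochondrial protease, by 1.48 (adjusted p = 1.08e-10). The antisense gene Gm17035 overlaps 90 of the last 400 bases of Ndrg1. Of the genes in this list, 6 fell past the 3 thresholds, among them genes of the matrix, of chemokine signalling and of energy metabolism. Lox and Loxl2, which cross-link collagen, fell with log2 fold changes of −1.12 and −1.57 (adjusted p = 7.29e-11 and 2.94e-08), and 27.9% of the 50-base windows of Loxl2 recur in other transcripts. Ak4, a mitochondrial adenylate kinase, was at −1.80 (adjusted p = 3.83e-07). The chemokine receptor gene Cxcr4 was at −1.90 and its ligand gene Cxcl12 at −1.19 (adjusted p = 9.65e-10 and 2.60e-07). Ndufa4l2, a mitochondrial protein known as a target of the factor and chosen after its values were seen, had at most 2 reads in any vehicle library and 19.9 ± 2.69 normalized counts in BAM15, at least 6.65-fold higher than a floor of 3 counts per library. Shmt2, which runs antisense, covers 32 of the last 400 bases of Ndufa4l2. With that bound in place of the fitted value, the median of the list was −0.03. Car12 and Angpt2, with at most 11 and 12 reads per library, were too low to test.

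The receptors and relatives of the secreted factors were tested for 11 of 14 genes, with a median of −0.29. Of these, 4 rose (36.4%, against 22% of all tested genes), 5 fell (45.5%, against 20.3%) and 2 did not pass. Calcrl, the receptor for adrenomedullin, rose from 161 ± 13.5 to 337 ± 20.3 (log2 fold change 1.07, SE 0.08, adjusted p = 1.72e-08). Ramp1, an accessory subunit that pairs with Calcrl, fell, at −1.02 (adjusted p = 3.82e-05), as did the lymphatic growth factor gene Vegfd, at −1.23 (adjusted p = 7.73e-06). A further pair of accessory genes, named after their values were seen, were Ramp3, which rose by 2.31 at a base mean of 26.0 (adjusted p = 2.22e-07), and Ramp2, which fell, at −0.50 (adjusted p = 0.00768). The fold of Ramp1 was under 2 without BAM15 replicate 4 or 6 or vehicle replicate 1, 5 or 6, with −0.95 on the log2 scale without BAM15 replicate 6. Leaving out any library other than BAM15 replicate 1 or 2 put the adjusted p of Ramp2 at 0.0105 to 0.0184. For numbers 1 to 3 alone Ramp1 was at −0.76, Ramp2 had an adjusted p of 0.0498, and the base mean of Vegfd was 49.6. Adm2 had at most 10 reads per library and was not tested. Among close relatives of the members, 5 of 9 were tested, of which 0 rose and 2 fell (40%, against 20.3% of all tested genes). These were Bnip3l, the paralogue of Bnip3 (−0.43, adjusted p = 1.29e-04; 0.0148 for numbers 4 to 6 alone), and Egln2, whose value is given above, and both genes also stand in earlier lists. Kdm3b was at −0.33 (adjusted p = 0.0421).

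**Figure D4:**
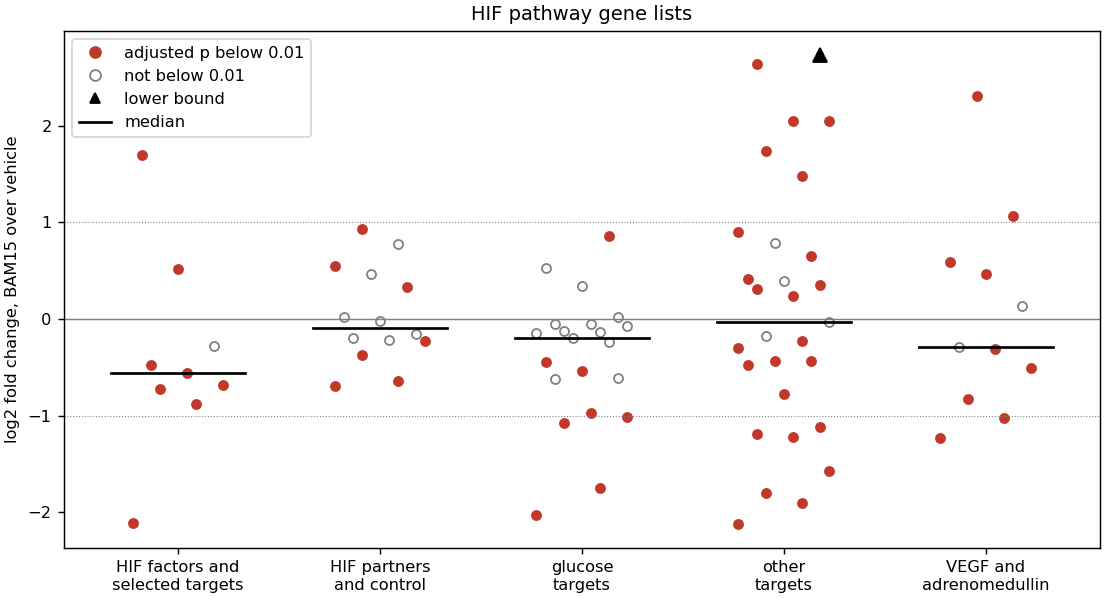
Log2 fold change, BAM15 over vehicle, of every tested gene in the member list and 4 pathway lists, with the median of each list as a bar; filled points have an adjusted p below 0.01, open points do not, and the triangle is the lower bound for Ndufa4l2. The glucose list has its 4 values farthest from 0 on the lower side, and the list of other targets holds values past 2-fold on both sides.

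Markers of other cell states were read beside these results. All 10 myoblast markers were tested, of which 6 fell (60%, against 20.3% of all tested genes), 1 rose (10%, against 22%) and 3 did not pass. Their summed normalized count was 6111 to 6546 in BAM15 and 10922 to 11782 in vehicle. Most of that sum came from Cdh15, named for its high count (means 4367 in vehicle and 2460 in BAM15), and Top2a (3241 and 1175). The proliferation genes Mki67 and Top2a fell, at −1.80 and −1.46 (adjusted p = 2.14e-08 and 2.22e-08), whereas Myf5, the myoblast marker that rose, was at 1.69 (adjusted p = 0.00144) and was chosen after its value was seen. The rise of Myf5 was 1.00 for numbers 1 to 3 and 2.06 for numbers 4 to 6. Its groups overlapped, with a lowest BAM15 count of 188 and a highest vehicle count of 201. All 12 myotube markers were present in every library, with 2 that rose (16.7%, against 22%), 3 that fell (25%, against 20.3%) and 7 that did not pass. Acta1, skeletal actin, rose by 0.46 (adjusted p = 3.96e-05) and Myog by 0.37 (adjusted p = 0.00361), the latter with an adjusted p of 0.0103 to 0.0106 without BAM15 replicate 4 or vehicle replicate 3 or 5, 0.0432 for numbers 1 to 3 alone, 0.0145 with library size only and 0.0106 on the deposited normalized signal. The 3 myotube markers that fell, named after their values were seen, were Mb (−0.34, adjusted p = 0.00500), Mymk (−0.27, adjusted p = 0.00492) and Ckm (−0.17, adjusted p = 0.00540). None of these 3 passed for numbers 1 to 3 alone, with an adjusted p of 0.0140, 0.0116 and 0.0146. The summed myotube count ranged from 328858 to 448685 in BAM15 and from 354718 to 399233 in vehicle, so the ranges overlapped. The part of the myoblast markers in the changes of the hypoxia genes was not tested.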

How the data were processed

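RNA of C2C12 myotubes, 6 libraries with 20 μM BAM15 and 6 with vehicle for 16 h, was sequenced by 3′ QuantSeq. The authors aligned and counted forward reads with BlueBee software, and the deposited counts are whole numbers per Ensembl gene; the aligner, annotation and strand setting are not given in the sources used here, and the submitters' processing notes name the builds GRCm38 and mm10. The authors also deposited a normalized signal made with DESeq2 1.22.2, which served for 1 alternative only. The tables hold 11 columns of other samples, not used here.

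Counts were analysed in R 4.3.3 with edgeR 4.0.16 (filterByExpr, TMM, robust quasi-likelihood fit with condition as the only term, Benjamini-Hochberg adjustment over 12730 tested genes; 2383 genes were removed). Genes past the 3 thresholds had an adjusted p below 0.01, a base mean above 50 and a fold change above 2, the thresholds of the study's methods. A model with 4 groups tested the difference between numbers 4 to 6 and 1 to 3, a split chosen with earlier results of these data known. Alternatives used limma 3.58.1 (for the signal, log2(value + 1)) and DESeq2 1.42.0. Figures were drawn with Python 3.11.15 and matplotlib 3.10.9. The main edgeR fit, the DESeq2 test, the limma-voom fit of the counts and the test between number sets were run on simulated data. The other alternatives were not. No library was a copy of another: the lowest chi-square per gene between libraries of the same condition was 4.72.

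Symbols came from the table for 12820 genes and from GENCODE M21 for 2260, and 15080 identifiers were found in that annotation; promoter sequences came from RefSeq (GRCm38.p6). The members and lists were chosen with earlier results of these data known. The text names all members, all tested partner and control genes, the genes past the 3 thresholds in the lists of targets, receptors and relatives (the 3 with the lowest p where fewer passed), and the 2 marker genes with the lowest p in each marker list; 1 gene that this rule takes in is not reported here, and other genes named are said to be chosen after their values were seen or bear on counting.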

Additional observations from a re-analysis of the deposited data

Results flagged for a closer look

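Each of the 46 genes named by rule was checked for a library far from the others of its condition, 92 groups of 6 libraries in all, and 3 libraries stood apart by a gap above Dixon's 95% critical value for that group size; about 1 group in 20 is picked by chance. BAM15 replicate 2 had the lowest Loxl2 count of its condition, 57.3 normalized counts against 88.3 in the nearest other library. The same library had the highest Slc16a3 count of BAM15, 192.3 against 149. Vehicle replicate 5 had the lowest Top2a count of its condition, 2799 against 3219. Each of these 3 genes fell with BAM15 with all libraries included, and none is a member.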

How the results depend on the processing

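No member changed direction under any alternative run: other scalings, filters and tools, the deposited signal, number sets, the replicate block or leaving out each library. The count of members past the 3 thresholds was 1, and it was 2 with numbers 1 to 3 only (Vegfa and Egln1) and 0 with a log2 fold change above 2. The latter gave 189 genes overall in place of 927, and glmTreat against 2-fold gave 467, both stricter by construction. The partner list went from 0 to 1 with numbers 4 to 6 only (Cited2), and the list of receptors from 3 to 1 with numbers 1 to 3 only (Calcrl). The difference between number sets passed for 1 member (Egln1) with DESeq2 size factors, upper quartile scaling or no robust moderation, and for 2 (Egln1 and Vegfa) with library size only; the cause was not tested. Kdm3a passed 0.01 with library size only (adjusted p = 0.00781). Ankrd37 could not be tested where at least 10 counts were required in every library.

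No pairing of the libraries by replicate number was seen: the same-number correlation of deviations ran from −0.08 to 0.31, and 2 of 6 libraries correlated best with their own number. These correlations cannot exclude a pairing, because the deviations within BAM15 also hold the difference between number sets. With the replicate block, 933 genes passed the 3 thresholds and 8 of the 9 members had an adjusted p below 0.01, and no member's call changed. Low counts limit Ankrd37 and Adm.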
